A study of Mus musculus with 3 samples.

Results

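The genes described are the secreted and membrane-bound metalloproteinases that cut the extracellular matrix, together with their tissue inhibitors. They were taken by symbol: every autosomal protein-coding gene of the RefSeq annotation of GRCm38 named Mmp, Timp or Adamts followed by a number. The rule found 45 of 20665 autosomal protein-coding genes: 23 matrix metalloproteinases (MMP), 3 tissue inhibitors of metalloproteinases (TIMP) and 19 ADAMTS proteases, which carry thrombospondin repeats behind their catalytic part. Timp1, on the X chromosome, falls outside the rule and is given apart.

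The data are peak lists of histone H3 acetylated at lysine 27 (H3K27ac), obtained by chromatin immunoprecipitation and sequencing from mouse pancreatic spheroids, which are spherical cultures of pancreatic epithelial cells. Both groups came from wild-type C57BL/6J mice: the untreated group from mice without treatment, and the post-caerulein group from mice given caerulein, a peptide that overstimulates acinar cells and causes pancreatitis, so that the treatment was of the animals and not of the cultures. The series title asks whether the epithelium keeps a memory of resolved inflammation. Each group has 1 H3K27ac library and 1 peak list; a library of input chromatin from untreated spheroids had no peak list here. The labels give neither the number of mice behind a culture nor the dose of caerulein or the time since it was given. With 1 library per condition no difference below has a replicate check, no p-value is given, and sequencing depth is unknown.

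H3K27ac lies over active promoters and enhancers. MMPs are zinc proteases made as inactive precursors, TIMPs bind their active site, and Timp3 also inhibits several ADAMTS proteases. In the pancreas these enzymes are known from the turnover of matrix during pancreatitis and from the stroma of tumours. H3K27ac reports on regulatory regions, not on the amount of enzyme.

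Each gene was described by the length of DNA under peaks of a list within 50 kb of the gene body (covered length, in kb) and by peaks that overlap no peak of the other list (list-only peaks). The windows of the 45 genes merged into 34 loci, since 10 Mmp genes lie side by side and the windows of Adamts1 and Adamts5, and of Adamts15 and Adamts8, run into each other; members of such a locus share peaks and are not independent. The loci held 141 of the 37924 autosomal post-caerulein peaks and 132 of the 36846 autosomal untreated peaks. In all, 529 kb was covered in the post-caerulein list and 514 kb in the untreated list, a log2 ratio of 0.04 beside 0.06 over all autosomes. The cell type on the labels was checked against marker genes. A peak lay at the start, or at an end where no start was known, of 11 of 11 ductal epithelial markers in both lists. The same held for 1 of 9 acinar, 0 of 9 mesenchymal and 1 of 6 endothelial markers in each list. Of 8 leukocyte markers, 4 were marked in the post-caerulein and 3 in the untreated list.

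The upstream sequences of the genes are shown first, because the genes with and without a peak at the start differed in them. RefSeq (GRCm38.p6) gave a start for 31 of the 45 genes. Within 250 bases upstream, an AP-1 site (TGAGTCA or its reverse complement TGACTCA) stood at 7 of the 31 (22.6%), beside 4.82% of 16457 autosomal genes with a start. A TATA box (TATAAA, gene strand only) stood at 9 (29.0%, beside 9.18%). A GC box (GGGCGG or CCGCCC) stood at 15 (48.4%, beside 46.7%), and an ETS word (AGGAAG or CTTCCT) at 12 (38.7%, beside 31.7%). AP-1 is the Fos and Jun factor that acts at many inducible MMP genes, and a match of letters is a description, not a bound site. Of the 7 genes with the AP-1 word, all lie in the Mmp cluster on chromosome 9: Mmp1a, Mmp1b, Mmp3, Mmp7, Mmp10 and Mmp13, which also carry the TATA box, and a second start of Mmp12, which does not. The 100 bases before the start, 5′ to 3′ on the gene's strand, are printed below in lower case, with matches to any of the 4 motifs in capitals.
Mmp7: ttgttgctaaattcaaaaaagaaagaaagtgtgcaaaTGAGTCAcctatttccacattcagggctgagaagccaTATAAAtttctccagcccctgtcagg
Mmp10: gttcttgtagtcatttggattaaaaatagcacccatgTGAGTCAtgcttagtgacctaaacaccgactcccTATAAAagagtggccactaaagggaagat
Mmp3: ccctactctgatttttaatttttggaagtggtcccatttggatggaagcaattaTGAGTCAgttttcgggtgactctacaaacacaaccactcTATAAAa
Mmp1a: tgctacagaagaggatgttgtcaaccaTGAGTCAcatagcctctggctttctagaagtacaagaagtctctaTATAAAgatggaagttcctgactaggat
Mmp1b: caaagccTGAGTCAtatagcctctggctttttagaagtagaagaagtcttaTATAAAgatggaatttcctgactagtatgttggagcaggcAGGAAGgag
Mmp13: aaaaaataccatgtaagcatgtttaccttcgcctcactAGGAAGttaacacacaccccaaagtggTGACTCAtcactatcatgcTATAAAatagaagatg
The stretches lie at chr9:7691990-7692089 (Mmp7, the first of its annotated starts), chr9:7502242-7502341 (Mmp10), chr9:7445722-7445821 (Mmp3) and chr9:7464041-7464140 (Mmp1a) on the forward strand, at chr9:7388027-7388126 (Mmp1b) on the reverse strand and at chr9:7272414-7272513 (Mmp13) on the forward strand. In Mmp7 the AP-1 word began 63 bases and the nearer TATA box 26 bases before the start. In Mmp10 the AP-1 word also began 63 bases before the start. Only Mmp7 of these 6 had an H3K27ac peak at its start.

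Among these genes, those with a peak at the start more often carried the GC box. It stood at 8 of 11 genes with a marked start and at 7 of 20 without, beside 46.7% of all genes with a start. The AP-1 word stood at 1 of 11 and at 6 of 20. The same split by marked start was not counted over all genes. The median share of G and C in the 250 bases was 62.0% over the 13 annotated starts of the marked genes and 53.6% over the 21 starts of the unmarked ones. The ranges overlapped, from 38.0 to 71.2% at marked and from 37.2 to 79.2% at unmarked starts. The highest share was at the unmarked start of Mmp24. These are descriptions with no test, and 6 of the 7 AP-1 genes lie in 1 stretch of the genome, the Mmp cluster from Mmp13 to Mmp10. The same cluster weighs on the GC box counts, since no gene of the Mmp cluster, marked or unmarked, carried the GC box. For comparison, 3 marked genes with the GC box are printed in the same way.
Adamts1: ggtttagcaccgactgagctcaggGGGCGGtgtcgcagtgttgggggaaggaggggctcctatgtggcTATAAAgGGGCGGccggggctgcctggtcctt
Timp3: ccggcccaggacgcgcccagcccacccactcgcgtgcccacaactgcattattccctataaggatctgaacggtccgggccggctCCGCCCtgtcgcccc
Mmp14: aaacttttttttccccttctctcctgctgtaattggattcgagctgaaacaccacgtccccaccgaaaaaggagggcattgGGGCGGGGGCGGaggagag
They lie at chr16:85803114-85803213 (Adamts1, reverse strand), chr10:86300312-86300411 (Timp3, forward strand) and chr14:54431498-54431597 (Mmp14, forward strand). Adamts1 carried GC boxes together with a TATA box that began 32 bases before its start.

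No start was marked in 1 list alone. A start was called marked if a list had a peak no farther than 1 kb from it. Of the 31 genes with a known start, 11 were marked in both lists (35.5%, beside 54.7% of all genes), 0 in the post-caerulein list alone (1.74% of all genes), 0 in the untreated list alone (0.99%) and 20 in neither (42.5%). The marked genes were Mmp7, Mmp11, Mmp14, Mmp15, Mmp23, Mmp27, Mmp28, Timp2, Timp3, Adamts1 and Adamts9. For the 14 genes without a known start either end of the gene was used, which cannot tell a start from a gene's 3′ end. An end of Mmp17, Adamts4 and Adamts6 was marked in both lists, and an end of Adamts7, Adamts10 and Adamts15 in the post-caerulein list alone. At Adamts15 this was a peak found in both lists, whose edge lay 936 bp from the gene's end post-caerulein and 1911 bp untreated. The nearest untreated peak to an end of Adamts7 and of Adamts10 lay 34179 and 74433 bp away. For Mmp2, Mmp9, Mmp16, Mmp19, Adamts5, Adamts8, Adamts16 and Adamts19 neither end was marked. Over all 4208 autosomal genes without a known start, an end was marked in both lists at 2198 and in neither at 1848. It was marked in the post-caerulein list alone at 93 and in the untreated list alone at 69.

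The families differed in the regions around the genes. At least 2-fold more covered length in the post-caerulein list, read on the log2 scale after adding 1 kb to each length, was found at 5 genes, all ADAMTS: Adamts16, Adamts1, Adamts15, Adamts5 and Adamts10. Over all autosomal genes 2.5% passed this mark, and the 5 genes stand on 4 loci. Mmp2 fell just short of the mark, at a log2 ratio of 0.96. At 0 members was the untreated length at least 2-fold greater, beside 2.33% of all genes. With peaks below their list's median score left out, 3 members passed in each direction, beside 3.53% of all genes post-caerulein and 2.78% untreated. With 5 kb added to each length 0 did, beside 0.411% and 0.566%. List-only peaks were mostly of the post-caerulein list at 12 of the 45 genes (26.7%, beside 24.6% of all genes) and mostly of the untreated list at 8 (17.8%, beside 22%). The set as a whole was thus close to the background, but its families were not alike. The post-caerulein list had the surplus at 9 of 19 ADAMTS genes (47.4%) and the untreated list at 3 (15.8%). Of the 26 MMP and TIMP genes, the surplus was post-caerulein at 3 (11.5%) and untreated at 5 (19.2%). The 23 MMP genes alone had 3 and 2, and the 3 TIMP genes 0 and 3, so the lean to untreated lay in the TIMP genes. Median log2 ratios were 0 for ADAMTS, 0 for MMP and -0.34 for TIMP genes, beside 0 over all genes. The difference between the families was not tested. ADAMTS genes are long, with a median body of 114 kb against 17.5 kb over all genes. Their median covered lengths were 6.14 kb post-caerulein and 4.73 kb untreated, beside 10.2 and 10.1 kb over all genes. Whether window length has a part in the difference was not tested.

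**Figure D1:**
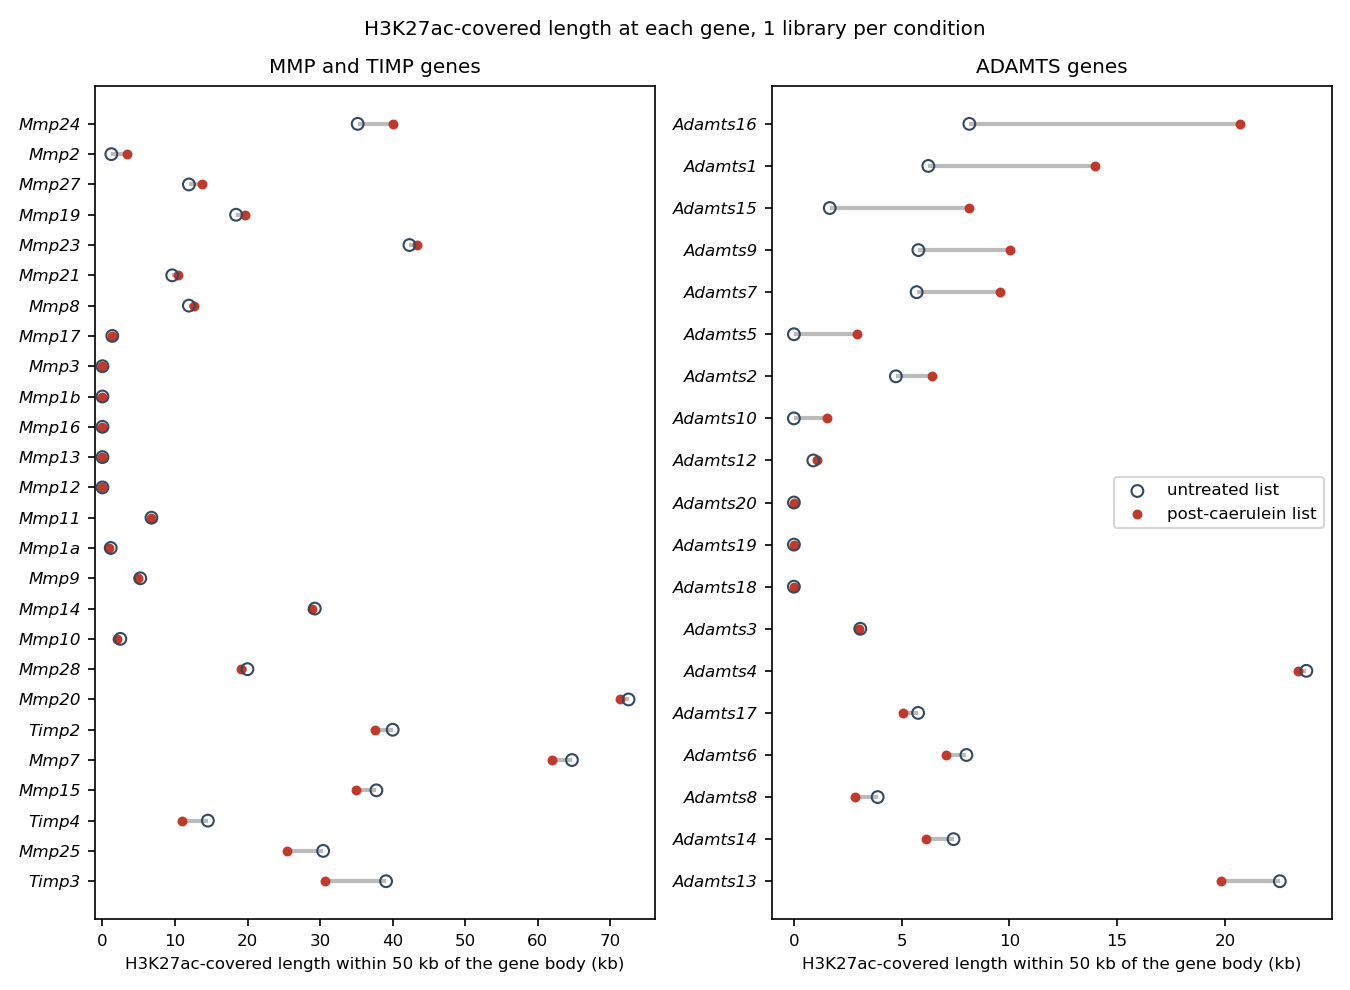
H3K27ac-covered length within 50 kb of the gene body (x axis, kb) for each MMP and TIMP gene (left) and each ADAMTS gene (right), with open circles for the untreated list and filled circles for the post-caerulein list, 1 library each. At Adamts16 the filled circle stands at 20.7 kb and the open one at 8.14 kb, whereas at Timp3 the order is turned, with 30.7 kb and 39.1 kb.

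Counted as peaks, 18 of the 53 post-caerulein peaks in ADAMTS windows had no untreated counterpart (34.0%, exact Clopper-Pearson 95% interval 21.5 to 48.3%), beside 17.6% of all autosomal post-caerulein peaks. In the MMP and TIMP windows the share was 6 of 88 (6.82%, 2.54 to 14.3%). Of the untreated peaks, 5 of 42 in ADAMTS windows (11.9%, 3.98 to 25.6%) and 10 of 90 in MMP and TIMP windows (11.1%, 5.46 to 19.5%) were untreated-only, beside 14.2% of all. The intervals cover counting error over peaks only, and peaks of 1 locus are not independent. Of the 18 peaks, 5 lay at Adamts16 and 3 at the locus of Adamts1 and Adamts5. Of the 6 post-caerulein-only peaks in MMP and TIMP windows, 5 were nearest to an MMP and 1 to a TIMP gene. Of the 10 untreated-only peaks there, the numbers were 5 and 5. The split by family was chosen after seeing the data, so the intervals are no test of it.

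The list-only peaks near these genes were weak, as list-only peaks were over the whole genome. The authors' score, which no header defines, was used only to rank peaks within their own list. All 24 post-caerulein-only peaks scored below the median of their list, and 18 of them in its lowest 25%; of all 6681 autosomal post-caerulein-only peaks 97.3% and 72.7% did. Of the 15 untreated-only peaks, 14 scored below the median and 9 in the lowest 25%, beside 94.3% and 68.8% of all 5229 autosomal ones. The exception lay 3′ of Adamts14, at percentile 52.7. List-only peaks had median widths of 1597 bp in the post-caerulein list and 1687 bp in the untreated list, against 3219 and 3083 bp for shared peaks. When list-only peaks were held to the median score of their list, 0 genes kept a surplus of post-caerulein-only peaks and 1 (Adamts14) one of untreated-only peaks, beside 1.12% and 2.27% of all genes.

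**Figure D2:**
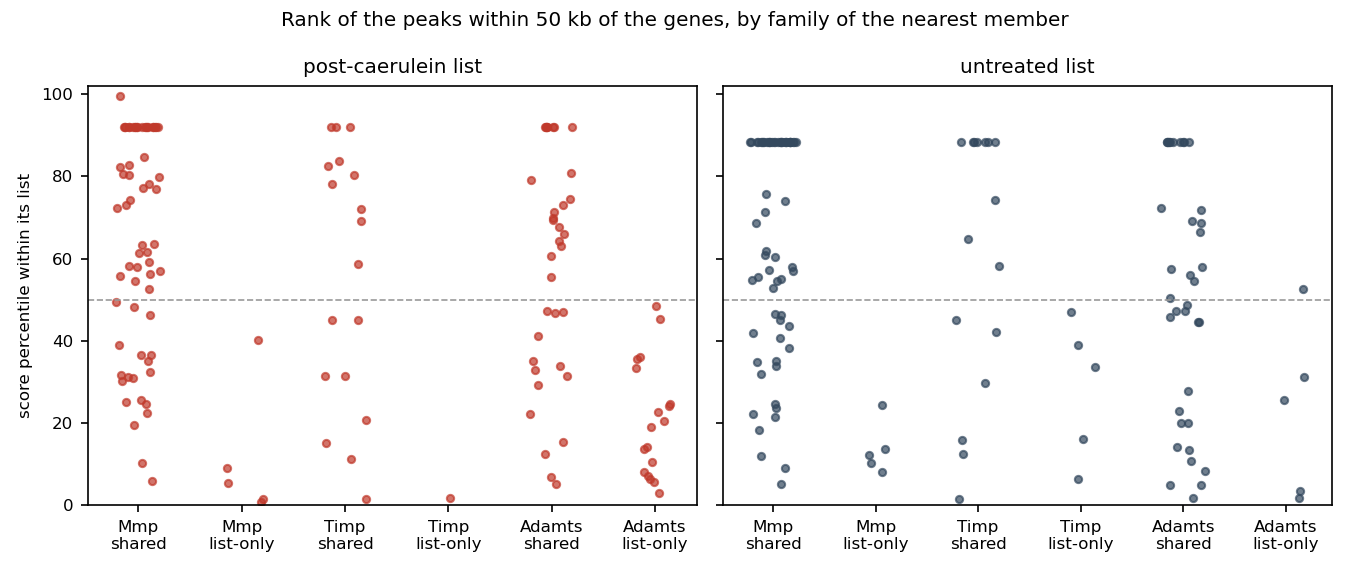
Score percentile within its own list (y axis) of each peak within 50 kb of the genes, for the post-caerulein (left) and untreated (right) list, split by the family of the nearest gene and by whether the other list has an overlapping peak. Each point is 1 peak, with sideways scatter for legibility. The dashed line is the list's median; all 24 post-caerulein-only points lie below it, and the highest scores of a list are tied.

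Matrilysin, Mmp7, is made by epithelial cells, and it had the longest covered length of the genes with a marked start. The Mmp cluster spans 10 of the genes in the order Mmp13, Mmp12, Mmp1b, Mmp3, Mmp1a, Mmp10, Mmp8, Mmp27, Mmp20 and Mmp7. The acetylation was at its Mmp7 end. Mmp7 (chr9:7692090-7699585) had 62.0 kb covered in the post-caerulein list and 64.7 kb in the untreated list. A single domain of 33.8 kb in each list (chr9:7666289-7700045 post-caerulein, chr9:7666342-7700163 untreated) ran from the end of Mmp20, the enamel protease, over the whole of Mmp7. By width it ranked 84 of 38793 post-caerulein peaks and 73 of 37765 untreated peaks. Next to it inside Mmp20 a post-caerulein peak covered 17.2 kb, and there the untreated list had a pair of peaks that covered 17.1 kb together. The covered length of Mmp20 was 71.3 kb and 72.5 kb, most of it the same DNA as that of Mmp7.

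At the other end of the cluster there was nothing. Within 50 kb of Mmp13 (collagenase 3), Mmp12 (macrophage elastase), Mmp1b (a rodent copy of the interstitial collagenase) and Mmp3 (stromelysin 1) neither list had a peak, and the nearest to the start of Mmp13 lay 86672 bp away in the post-caerulein list. Mmp1a, the other copy of the interstitial collagenase, and Mmp10, stromelysin 2, reached only a peak beyond the end of Mmp10, with 0.947 and 2.01 kb in the post-caerulein list and 1.14 and 2.46 kb in the untreated list. Between Mmp10 and Mmp20 the lists held small peaks. Mmp8, the neutrophil collagenase, had 12.6 kb and 11.9 kb covered. Mmp27 had 13.8 kb against 11.9 kb in untreated, with 1 post-caerulein-only peak (chr9:7620189-7621298) that lies nearer to Mmp20. The peak edge nearest to the start of Mmp27 was 54 bp away in the post-caerulein list and 965 bp away in the untreated list, so that this start is called marked without being covered. One untreated-only peak of 1425 bp (chr9:7716863-7718287) lay 17278 bp beyond the end of Mmp7.

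**Figure D3:**
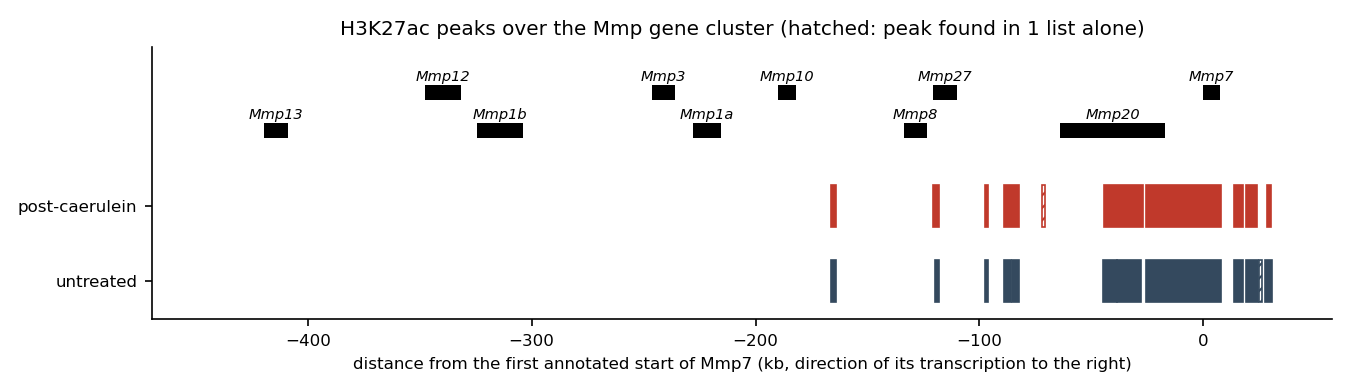
Peaks of the post-caerulein list (upper row) and the untreated list (lower row) over the Mmp cluster, with gene bodies in black and distance from the first annotated start of Mmp7 on the x axis (kb). Hatched boxes are peaks without a counterpart in the other list. Peaks crowd around Mmp7 and Mmp20, and there is none from Mmp13 to Mmp1a.

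The gelatinases, which cut denatured collagen and basement membrane collagen, were sparsely acetylated. Mmp2 (chr8:92827290-92853421) had 3.31 kb covered in the post-caerulein list and 1.22 kb in the untreated list. The surplus was 1 post-caerulein-only peak of 1815 bp inside the gene, at percentile 9.07 of its list; the shared peak lay at the start of the neighbouring gene Lpcat2. The log2 ratio of Mmp2 was 0.96 and fell to 0 when only peaks at or above the median score were kept. It was 1.15 with a pseudocount of 0.5 kb and 0.42 with one of 5 kb. With peaks nearest to the gene, or over the gene body, it was 1.49. Mmp9 had 1 peak in each list, of 4.90 and 5.21 kb, and it lay at the start of the neighbouring gene Zfp335, 26259 bp from the nearer end of Mmp9 in the post-caerulein list. No peak near Mmp9 was particular to either list.

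The membrane-type MMPs, which are tethered to the cell surface and some of which activate the precursor of Mmp2, included broadly marked starts. Over the start of Mmp14 lay a peak of 11.5 kb in the post-caerulein list and 12.4 kb in the untreated list. Over that of Mmp15 the peaks measured 19.4 and 21.2 kb. Covered lengths were 28.9 and 29.3 kb at Mmp14, and 34.9 and 37.8 kb at Mmp15, with 0 list-only peaks at either gene. At Mmp24 the lengths were 40.1 kb post-caerulein and 35.2 kb untreated. A post-caerulein peak of 27998 bp (chr2:155800421-155828418) spanned the 3′ part of Mmp24 and the genes Eif6 and BC029722, where the untreated list had a pair of peaks of 12623 and 13272 bp; the start of Mmp24 was unmarked in both. Mmp25 went the other way, with 25.4 kb post-caerulein, 30.4 kb untreated and 2 untreated-only peaks upstream of its start at 11761 and 23800 bp. Mmp17 had 1 peak of 1.36 kb in each list at a gene end. Mmp16 had no peak in reach, the nearest being 1446248 bp from the gene's end in the post-caerulein list.

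The remaining MMPs differed little between the lists. Covered lengths in the post-caerulein and the untreated list were 6.71 and 6.75 kb at Mmp11 (stromelysin 3), 19.7 and 18.4 kb at Mmp19, 10.5 and 9.61 kb at Mmp21, 43.3 and 42.3 kb at Mmp23, and 19.1 and 20.0 kb at Mmp28. Mmp19 and Mmp23 each had 1 list-only peak of either list, and Mmp11, Mmp21 and Mmp28 had 0. Over all Mmp genes, not only these, 60 regions nearest to one were acetylated in both lists. Of the 60, 27 were wider in the post-caerulein list (45.0%, beside 55.9% over all autosomes) and 33 in the untreated list.

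All 3 autosomal TIMP genes had less covered length in the post-caerulein list, and at each the untreated-only peaks outnumbered the others, as at 22% of all genes. Only Timp3 kept this direction in length under every setting tried. Timp2 turned to 0.062 within 10 kb, 0.063 with peaks nearest to the gene and 0.15 over the gene body, and Timp4 had no covered length in these 3 settings. Timp3 (chr10:86300412-86349505), whose product stays bound to the matrix, had 30.7 kb in the post-caerulein list and 39.1 kb in the untreated list, a log2 ratio of -0.34. Of its 7 regions found in both lists, 6 were wider in untreated, including the region over the start (3.24 kb against 4.29 kb). The region chr10:86306253-86311932, inside the gene, measured 2.77 kb against 5.67 kb, and that just beyond its 3′ end (chr10:86350392-86353923) 0.945 kb against 3.53 kb. One region inside Timp3 went the other way, with 3.21 kb post-caerulein and 1.68 kb untreated. Its 1 untreated-only peak lay 48370 bp upstream, at the edge of the window.

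Timp4 (chr6:115244444-115252205) had 10.9 kb and 14.5 kb, a log2 ratio of -0.38, and all 3 of its shared regions were wider in untreated. An untreated-only peak of 2517 bp lay 21144 bp beyond its 3′ end, at percentile 46.9 of the list. No peak lay at the start of Timp4, the nearest being 15709 bp away in the post-caerulein list. Timp2 (chr11:118301061-118355411), which takes part in the activation of Mmp2 by Mmp14, had 37.6 kb and 40.0 kb. The peak over its start measured 11.4 and 11.8 kb, and 4 of its 6 shared regions were wider in the post-caerulein list. It had 3 untreated-only peaks and 1 post-caerulein-only peak. Thus at Timp2 the shared regions and the list-only peaks did not point the same way, and at Timp3 and Timp4 they did. Timp1 on the X chromosome had its start marked in both lists, with 4.08 kb post-caerulein and 3.37 kb untreated and 0 list-only peaks.

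**Figure D4:**
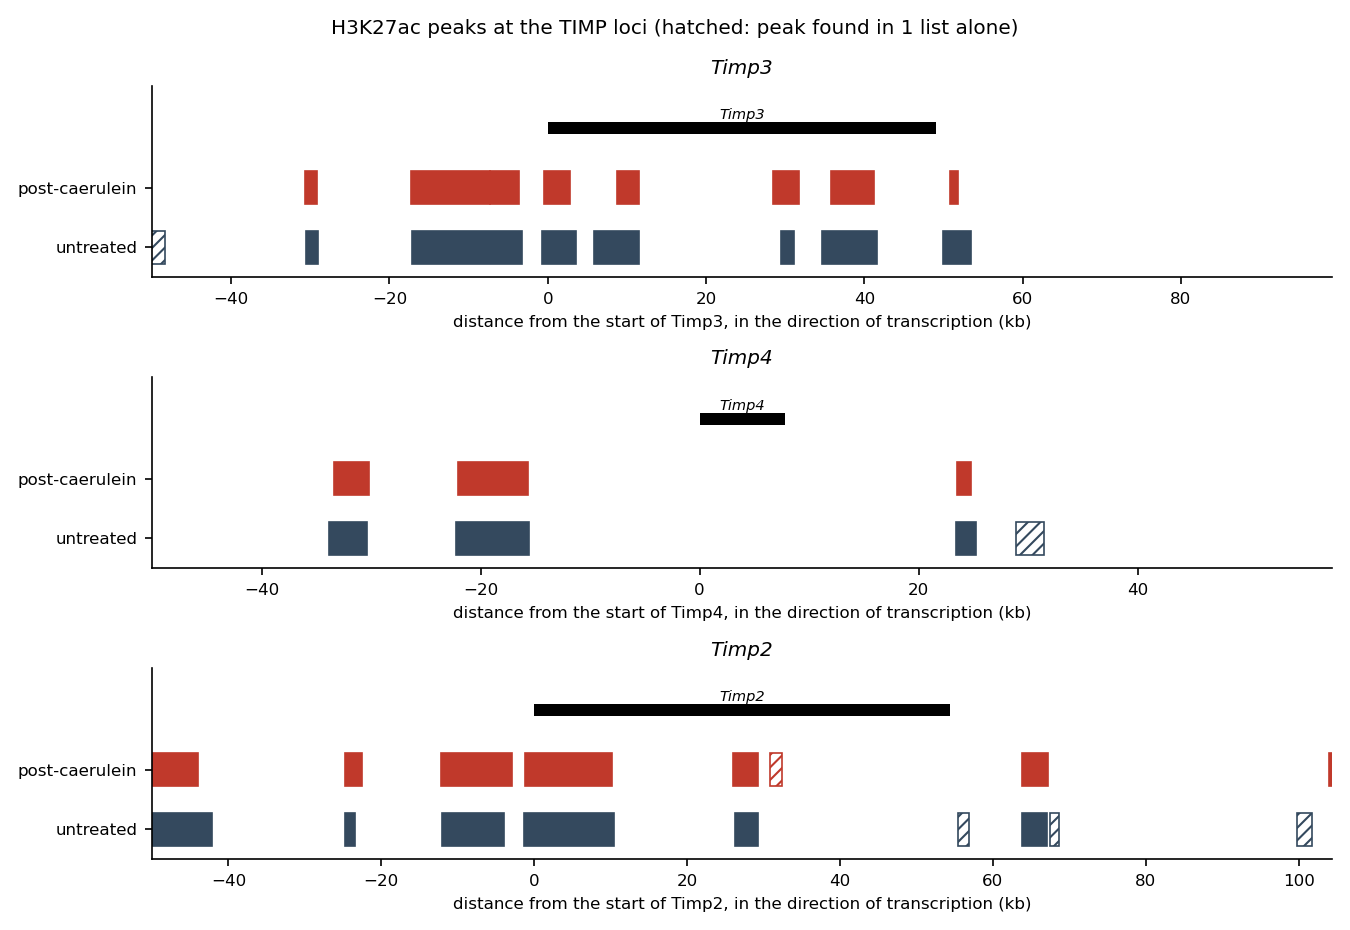
Peaks of the post-caerulein (upper row) and untreated list (lower row) at Timp3, Timp4 and Timp2, with the gene body in black and distance from the start in the direction of transcription on the x axis (kb). Hatched boxes are peaks without a counterpart in the other list: 1 untreated-only peak at Timp3, 1 at Timp4 and 3 at Timp2, and 1 post-caerulein-only peak at Timp2.

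The ADAMTS proteases that cut the proteoglycans aggrecan and versican had a median log2 ratio of 0.70 over 7 genes, and at 5 of them post-caerulein-only peaks prevailed. Adamts1 and Adamts5 share a peak, and without Adamts5 the median was 0.35 over 6 genes, with 4 such genes. Adamts1 (chr16:85793827-85803113) had 13.96 kb covered in the post-caerulein list and 6.24 kb in the untreated list. The single untreated peak lay over its start and matched a post-caerulein peak of 6.77 kb there. The surplus came from 3 post-caerulein-only peaks: 1 of 935 bp at 4083 bp upstream of the start, 1 of 2926 bp at 22795 bp upstream, and 1 of 3320 bp at 35577 bp beyond the 3′ end. Over the gene body alone the log2 ratio was -0.019, so that the difference at Adamts1 lay outside the gene. Among these the peak beyond the 3′ end scored highest, at percentile 45.4 of its list. With peaks at or above the median score alone, the log2 ratio of Adamts1 dropped from 1.05 to 0.10.

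Adamts5, the aggrecan-cutting neighbour of Adamts1, was listed at 0 kb in the untreated list and had 2.93 kb in the post-caerulein list. This was the 2926 bp peak already given for Adamts1, which is nearer to that gene, so the locus counts once. Adamts15 (chr9:30899155-30922452) had 8.12 kb post-caerulein and 1.66 kb untreated, a log2 ratio of 1.78. A pair of post-caerulein-only peaks of 2308 and 3197 bp lay 47901 and 42038 bp to the left of the gene on the chromosome, and the second had the highest rank of all 24, percentile 48.5. The shared peak near the left end of Adamts15 measured 2.82 kb post-caerulein and 1.66 kb untreated. That shared peak was the only post-caerulein peak in reach of the neighbour Adamts8, which had 2.82 kb, against 3.89 kb and 1 untreated-only peak of 2223 bp in untreated.

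Adamts9 (chr6:92772699-92944450) had 10.0 kb post-caerulein and 5.78 kb untreated, a log2 ratio of 0.70. Its start was marked in both lists, and the post-caerulein-only peaks of 1329 and 2343 bp lay inside the gene. Adamts4, an aggrecan-cutting enzyme in a gene-dense region, had 23.4 and 23.8 kb, most of it at the starts of neighbours such as B4galt3 and Usp21, and 1 post-caerulein-only peak. Adamts20 had no peak of either list in reach. When only peaks at or above the median score were kept, the log2 ratios of Adamts5 and Adamts15 were 0 and that of Adamts9 was 0.09.

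Adamts16 (chr13:70727798-70841845), a less studied protease known from kidney and blood pressure genetics, had the largest difference in length of the 45 genes, with 20.7 kb in the post-caerulein list and 8.14 kb in the untreated list and a log2 ratio of 1.25. It also had the most list-only peaks, 5 post-caerulein-only and 0 untreated-only. The 5 were narrow, from 753 to 1906 bp, and ranked between percentiles 5.50 and 22.6 of their list. The difference did not rest on them alone. Of the 4 regions found in both lists, 3 were wider in the post-caerulein list (75.0%, beside 55.9% over all autosomes). Their median log2 ratio of width was 0.64, beside 0.03 over all autosomes and short of 2-fold. At chr13:70729546-70735258, inside the gene, 5.71 kb was covered post-caerulein by 1 peak and 3.04 kb in untreated by a pair of peaks. At chr13:70792169-70796002 the lengths were 3.83 and 1.68 kb. With peaks at or above the median score alone, Adamts16 had 8.71 kb against 2.34 kb, a log2 ratio of 1.54, and so stayed past 2-fold, which Adamts1, Adamts15, Adamts5 and Adamts10 did not. With a window of 10 kb, or over the gene body, its log2 ratio was 0.99. It was 0.91 with a window of 100 kb and 0.97 with a pseudocount of 5 kb, short of 2-fold in each.

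**Figure D5:**
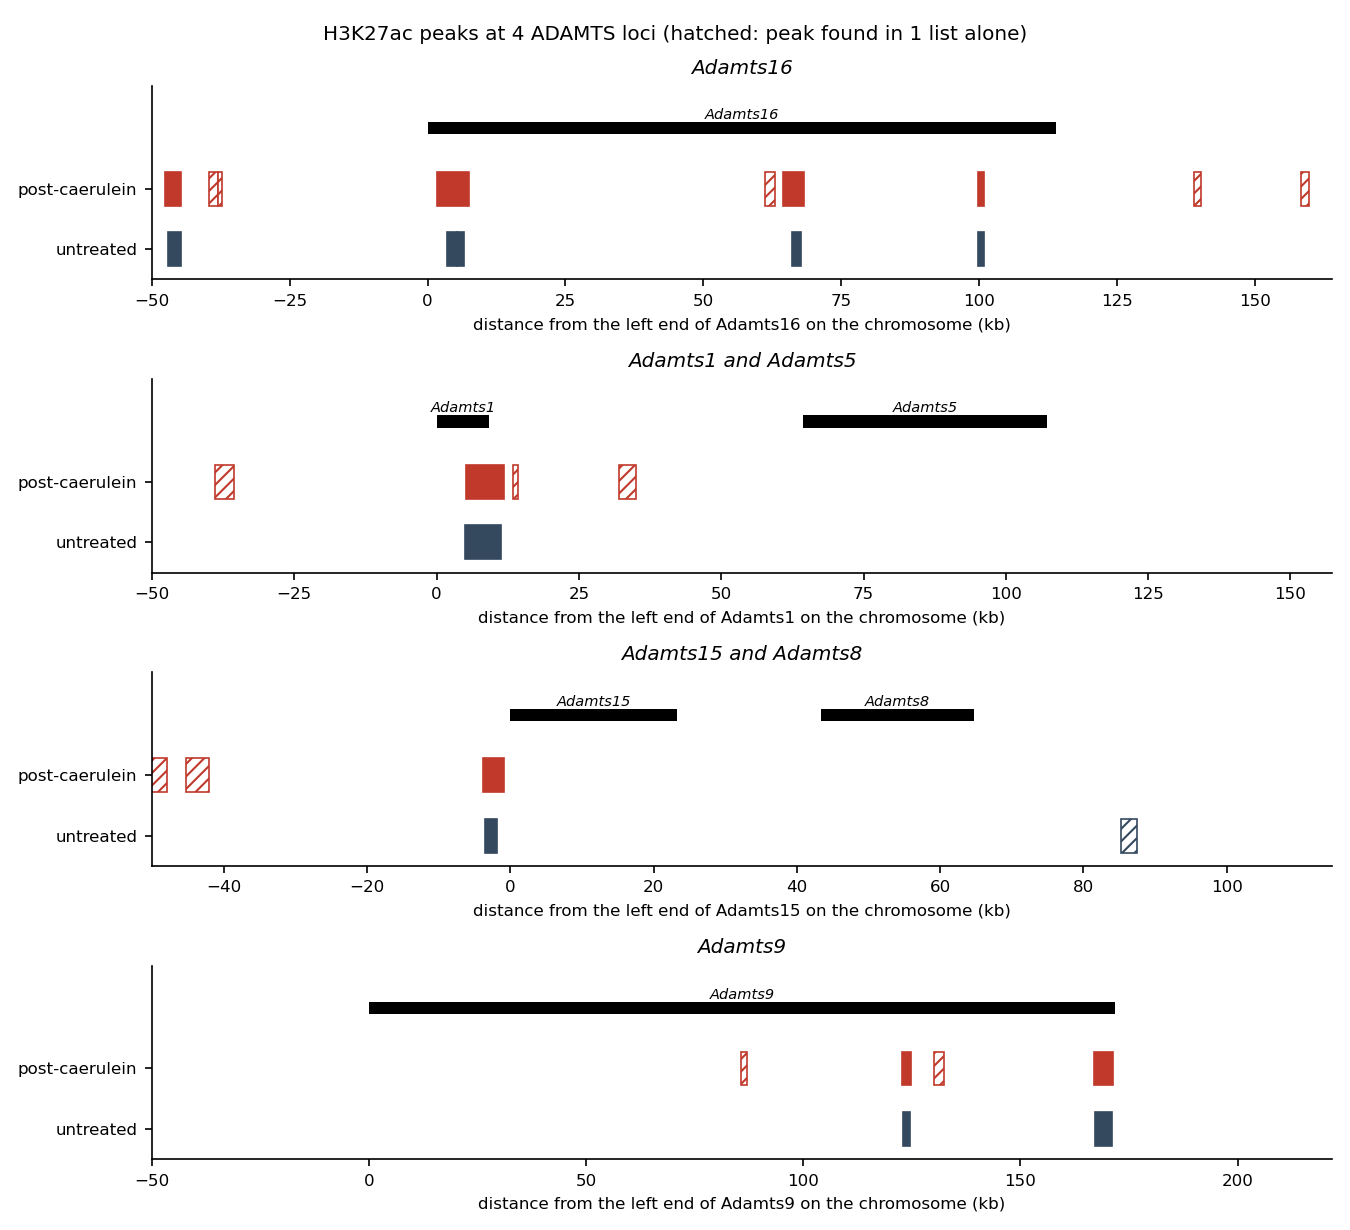
Peaks of the post-caerulein (upper row) and untreated list (lower row) at Adamts16, Adamts1 and Adamts5, Adamts15 and Adamts8, and Adamts9, with gene bodies in black and distance from the left end of the first gene on the x axis (kb). Hatched boxes are peaks without a counterpart in the other list: 5 at Adamts16, 3 around Adamts1, 2 at Adamts15 and 2 at Adamts9, all of the post-caerulein list, and 1 of the untreated list right of Adamts8.

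The COMP-cleaving pair, which degrades cartilage oligomeric matrix protein, held Adamts7 and Adamts12. Adamts7 (chr9:90162904-90200102) had 9.56 kb post-caerulein and 5.70 kb untreated, and its 1 post-caerulein-only peak (chr9:90197140-90199598, percentile 18.96) lay at the right end of the gene. At 100 kb its log2 ratio was 0.00 and over the gene body 1.79, against 0.66 at 50 kb. Adamts12 had 1.05 and 0.902 kb, all from the edge of a peak at the neighbour Tars.

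The procollagen N-propeptidases, which trim fibrillar procollagens, had few peaks. Adamts2 had 6.42 and 4.73 kb, with its 3 regions wider in the post-caerulein list and 0 list-only peaks. With peaks at or above the median score its log2 ratio moved from 0.37 to 2.34, since only a post-caerulein peak of 4.07 kb was left. Adamts3 had 3.02 and 3.08 kb. Adamts14 had 6.14 kb post-caerulein and 7.41 kb untreated, with 1 list-only peak of each list. The untreated-only peak (chr10:61156714-61161190, 4477 bp) lay 35922 bp beyond its 3′ end, and the post-caerulein-only peak of 2203 bp lay 12173 bp upstream of its start. Within 10 kb the log2 ratio of Adamts14 was 0.56, against -0.24 at 50 kb.

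Of the other ADAMTS genes, Adamts13, which cuts von Willebrand factor, had 19.8 kb post-caerulein and 22.5 kb untreated, mostly at neighbours. Its 1 post-caerulein-only peak of 1496 bp lay inside the gene, 2753 bp from its start, and over the gene body alone the log2 ratio was 0.80, against -0.18 within 50 kb. Adamts10, whose product acts on fibrillin microfibrils, was listed at 0 kb in untreated and had a single post-caerulein peak of 1533 bp at its left end, at percentile 10.5. Adamts6 had 7.06 and 8.01 kb, with 1 list-only peak post-caerulein and 2 in untreated, and Adamts17 had 5.07 and 5.76 kb with 1 untreated-only peak. Adamts18 and Adamts19 had no peak in either list. In all, 8 of the 45 genes had none (17.8%, beside 19.5% of all genes): Mmp3, Mmp12, Mmp13, Mmp1b, Mmp16, Adamts18, Adamts19 and Adamts20.

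Of the 35 regions nearest to an ADAMTS gene that were acetylated in both lists, 24 were wider in the post-caerulein (68.6%) and 11 in the untreated list. Over all autosomes 55.9% of 29506 shared regions were wider in the post-caerulein list and 44.0% in the untreated list. Of the 16 nearest to a TIMP gene, 5 were wider in the post-caerulein (31.3%) and 11 in the untreated list. Median log2 ratios of their widths were 0.07 and -0.06, beside 0.03 over all autosomes. Since several ADAMTS genes are known from fibroblasts, mesenchymal markers were set beside them. Of 9 such markers, 0 had a peak at the start or an end in either list. Their summed covered length was 63.7 kb post-caerulein and 49.9 kb untreated, with Col1a2, Col3a1, Lum and Pdgfra at 0 in both lists and most of the surplus at Pdgfrb (8.98 against 2.74 kb) and Thy1 (12.3 against 7.40 kb). The window of Pdgfrb overlaps that of the leukocyte marker Csf1r, which had 12.6 against 7.57 kb. For leukocytes, whose proteases include Mmp8 and Mmp12, 4 of 8 markers were marked in the post-caerulein and 3 in the untreated list, summed lengths were 115 and 117 kb, and Adgre1 and Lyz2 were at 0 in both. Of the 8, 4 had more length post-caerulein and 2 more in untreated, among the latter Spi1 (6.25 against 15.2 kb). For endothelium 1 of 6 was marked in each, with summed lengths of 47.2 and 54.9 kb and Emcn at 0 in both. What part such cells have in the differences was not tested.

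The wider set of pericellular proteolysis genes, 38 partners such as plasminogen activators, ADAM proteases, cathepsins and their inhibitors, had a surplus of post-caerulein-only peaks at 16 (42.1%, beside 24.6% of all genes) and of untreated-only peaks at 4 (10.5%, beside 22%). At least 2-fold more covered length in the post-caerulein list was found at 2 of the 38 (5.26%, beside 2.5% of all genes) and in the untreated list at 0 (beside 2.33%). Adam12, a membrane-bound relative of the ADAMTS proteases, had 43.8 kb post-caerulein and 24.6 kb untreated, with 7 post-caerulein-only peaks against 1. Plau, the urokinase that activates plasminogen, had 31.8 and 20.7 kb with 5 against 0. The cathepsins, lysosomal proteases that are also secreted, were split. Ctsl had 44.9 and 33.9 kb with 3 against 1, whereas Ctsb had 51.6 and 62.3 kb with 0 against 5. The 2 partners past 2-fold, named after their values were seen, were Lox, a collagen cross-linking enzyme, with 5.90 and 1.02 kb, and Tll1, a procollagen C-proteinase, with 3.62 kb post-caerulein and listed at 0 in untreated.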

How the data were processed

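H3K27ac peaks of 2 libraries were analysed, 1 per condition. The build was GRCm38 (mm10), and MACS 1.4, SAMtools, Bowtie2 2.2.6 and Trimmomatic 0.38 were used, per the submitters' processing notes. For the peak caller, control and options are not given in the sources used here. A deposited list gives chromosome, start, end, name and a score of the authors, which ran from 50.0 to 3233.06 and was used only to rank peaks within a list. Each list belongs to a single library.

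Gene bodies came from the RefSeq table of GRCm38.p6, which has no strand or exons, so no peak was placed in an exon or intron. Starts and strands came from the RefSeq promoter table. Overlap meant at least 1 bp, and log2 ratios of covered length used a pseudocount of 1 kb. The scripts were tested on simulated data and against bedtools 2.31.1. Values were written out for the 20 genes with the largest difference in covered length, every gene with a start marked in 1 list alone, the TIMPs, up to 3 genes without a peak, and 4 partners, and the other genes more briefly. The members, gene lists and rules were chosen with earlier results of these data known. Alternatives were a score limit, equal numbers of peaks, other windows, overlaps, pseudocounts and start distances, merged peaks and the nearest gene.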

Additional observations from a re-analysis of the deposited data

How the results depend on the processing

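With 1 library per condition, stability can be read only across settings, and depth limits what is called a peak to an unknown degree. No paired analysis was possible because neither group has a second library. The number of genes past 2-fold in the post-caerulein list was 5, beside 2.5% of all genes. It became 3 with peaks at or above their list's median score, beside 3.53% of all genes. With windows of 10 and 100 kb it was 2 in each, beside 2.82% and 2.13%. With a pseudocount of 5 kb it was 0, beside 0.411%, and over the gene body alone 3, beside 2.54%. The untreated number, 0 (2.33% of all genes), became 3 with the score limit (2.78%) and 2 with peaks nearest to the gene (3.03%). With the score limit the genes were Adamts16, Adamts2 and Adamts3 post-caerulein, and Mmp1a, Mmp10 and Adamts14 untreated. With peaks nearest to the gene the 2 untreated genes were Adamts4 and Adamts8, at -1.71 and -1.69. The post-caerulein number became 6 in that setting (3.59% of all genes) and with a pseudocount of 0.5 kb (2.83%). Mmp2 was among the 6 in each. Under the score limit, genes with more post-caerulein-only peaks went from 12 to 0, and the share of all genes from 24.6 to 1.12%. ADAMTS genes went from 9 to 0, and MMP and TIMP genes from 3 to 0. Genes with more untreated-only peaks went from 8 to 1, and the share of all genes from 22 to 2.27%. Here ADAMTS genes went from 3 to 1, and MMP and TIMP genes from 5 to 0. The list-only shares of peaks went from 17.0 and 11.4% to 0 and 1.32%. More untreated-only peaks were found at 1 gene at 10 kb, beside 12.6% of all genes (ADAMTS 1, MMP and TIMP 0, share of untreated-only peaks 5.45%). With nearest peaks the number was 3, beside 11.6% of all genes (MMP and TIMP 1). Over the gene body the number was 1, beside 8.45% of all genes (ADAMTS 1, MMP and TIMP 0). At 100 kb the MMP and TIMP numbers were 5 post-caerulein and 8 untreated, beside 31.1% and 27.5% of all genes. Over the gene body 5 ADAMTS genes had a surplus of post-caerulein-only peaks, beside 9.96% of all genes, and Adamts1 turned from 1.05 to -0.019. The cause was not tested. The gene body and the split by family were chosen after seeing the data. The number of marked starts in both lists ranged from 9 to 11 over its settings, with 0 in either list alone. Of 160 single-gene log2 ratios (20 genes under 8 settings), 14 had the opposite sign to the reported value, at 8 genes: Adamts1, which alone of these had been past 2-fold, and Adamts13, Adamts14, Mmp7, Mmp19, Mmp25, Mmp27 and Timp2.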
